A study of Mus musculus with 8 samples.

Results

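The cytoplasmic ribosomal protein genes were followed in whole cerebella of newborn mouse pups in which Sufu, which restrains the Gli transcription factors of the Hedgehog pathway, was deleted in the granule neuron lineage. The members were all gene symbols made of Rpl or Rps, a number and at most 1 of the letters a, l, x or y, together with Rplp0, Rplp1, Rplp2, Rpsa, Fau and Rpl22l1. This rule took 83 of the 24062 genes in the deposited tables, of which 47 encode proteins of the large subunit, 33 of the small subunit and 3 of the stalk of the large subunit, counting their close paralogs. After the filter on low counts 80 of the members were tested, among 15789 genes in all. The 3 members that did not pass were Rpl3l, Rpl10l and Rpl39l.

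The mutants were 4 pups with Math1-Cre, 1 floxed and 1 null Sufu allele, and the controls were 4 littermates with 1 floxed and 1 wild-type Sufu allele, per the series text. The sample labels call these littermates only control, so their Cre status is unknown here. All pups were of a mixed C57BL/6 strain, were collected at postnatal day 2 and came from crosses in which a parent also carried a Math1 mgfp allele, which was not listed per pup. Math1 (Atoh1) marks the granule neuron precursors, so Cre was active in a part of the tissue only, while all cells of a mutant carried the null allele. Each cerebellum was a separate library, made from polyA RNA with an unspecified strand setting in the counting. Sample titles carry a letter, P or R, whose meaning is not stated. Mutants 1 and 2 and controls 1 and 2 have the letter P, and mutants 3 and 4 and controls 3 and 4 have the letter R.

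Ribosomal proteins assemble with ribosomal RNA into the small subunit, which reads the messenger RNA, and the large subunit, which joins amino acids. Their genes lie scattered over the genome and their messenger RNAs start with a terminal oligopyrimidine (TOP) stretch, through which mTOR signalling and Larp1 control their translation. Granule neuron precursors divide rapidly in the first days after birth under Hedgehog signalling, and dividing cells make many ribosomes. In bulk tissue, fewer cells of a type and less RNA per cell cannot be told apart.

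Libraries held from 21479565 to 26638284 counts in genes. Sufu was at 31.7, 34.4, 36.8 and 39.8 CPM (counts relative to the TMM-scaled library size) in mutants 1 to 4, against 47.7, 51.0, 55.9 and 60.7 CPM in controls 1 to 4, so the groups did not overlap. The granule precursor markers Atoh1, Zic1, Pax6 and Barhl1 were present in all 8 libraries. The Y-linked Ddx3y was at 73.9 CPM in mutant 2 and 66.0 CPM in mutant 4, 1 pup per letter, and at 0.134 CPM or below in the other pups, which expressed Xist. The 12 Hox genes listed as hindbrain markers summed to 172, 64.0, 98.1 and 6.58 CPM in mutants 1 to 4 and to 119 to 210 CPM in controls, so mutant 4 stood apart in them. Reads aligned to several places were 15.6% and 16.0% of entries in mutants and 15.2% and 15.3% in controls of letter P, and 12.2% and 11.8% in mutants and 11.7% and 12.02% in controls of letter R. Reads outside annotated genes were 17.3% and 17.7% of entries in mutants and 14.2% and 15.1% in controls of letter P, and 12.8% and 13.7% in mutants and 12.2% and 13.4% in controls of letter R, so the mutants of letter P had the most. Ribosomal protein genes have many processed copies in the genome, so their counts are uncertain to the extent that such reads were dropped.

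The ribosomal protein genes together took 2.31%, 2.54%, 3.94% and 3.85% of the counts in mutants 1 to 4, against 3.17%, 2.91%, 2.69% and 2.67% in controls 1 to 4. The 2 mutants of letter P were the lowest of the 8 libraries and the 2 mutants of letter R were the highest, with the 4 controls between them. The Wilson 95% interval of the highest share ran from 3.93% to 3.95%, and such intervals cover counting error only. The mean share was 3.16% ± 0.85 (SD, n = 4) in mutants and 2.86% ± 0.23 (SD, n = 4) in controls. The difference between these means was smaller than the spread among the mutants.

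**Figure D1:**
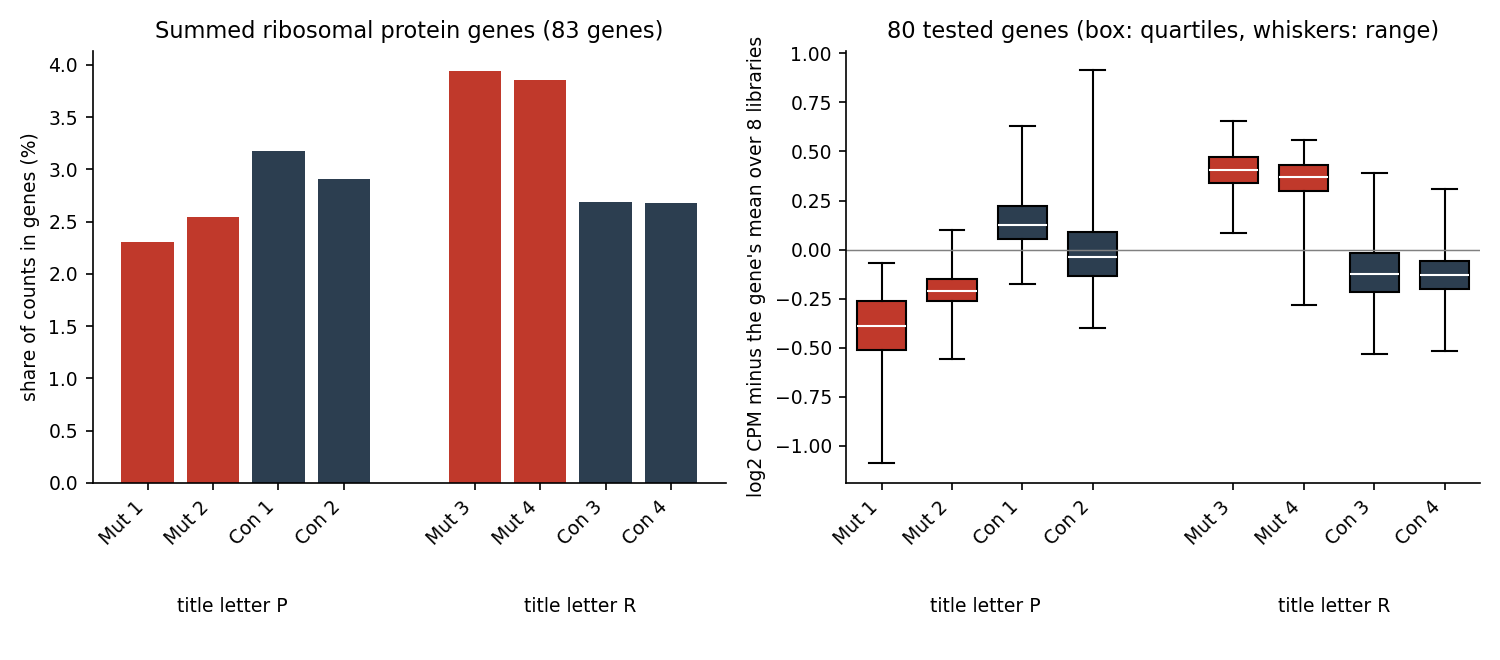
Left, share of the counts in genes (%) taken by the 83 ribosomal protein genes in each library; right, log2 CPM of each of the 80 tested genes less its mean over the 8 libraries (box, quartiles; whiskers, range; white line, median). Mutants (red) are the lowest libraries in letter P at 2.31% and 2.54% and the highest in letter R at 3.94% and 3.85%, with controls (dark) between 2.67% and 3.17%.

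Mutants and controls were first compared over all 8 libraries, the comparison the series states. No ribosomal protein gene passed the test (0 of 80; edgeR's quasi-likelihood test, Benjamini-Hochberg adjusted p under 0.05), where 0% of the 15789 genes were called. At an unadjusted p under 0.05 there were 0 members and 1995 genes in all, and DESeq2 called 47 genes and 0 members. The mean was higher in mutants for 70 of 80 members, and the median log2 fold change was 0.13 for members, against 0.01 for all genes. Without mutant 3 that median was 0.00 and without mutant 4 it was 0.02.

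The 4 members with the smallest p in that comparison were Rpl14, Rps6, Rpl21 and Rpl22l1. Rpl14, a large-subunit protein, was at 278, 288, 356 and 398 CPM in mutants 1 to 4, against 276, 286, 281 and 278 CPM in controls 1 to 4. The mutants of letter R were well above the controls and those of letter P close to them, and the log2 fold change over all libraries was 0.23 (SE 0.12, edgeR adjusted p = 0.425). Rps6, the small-subunit protein phosphorylated by S6 kinases, was at 448, 497, 673 and 711 CPM in mutants, against 501, 467, 487 and 489.7 CPM in controls, a log2 fold change of 0.26 (SE 0.15, edgeR adjusted p = 0.452). Rpl21 of the large subunit was at 511, 550.1, 735 and 683 CPM in mutants, against 600.05, 534, 518 and 507 CPM in controls, a log2 fold change of 0.20 (SE 0.13, edgeR adjusted p = 0.508). In these 3 genes mutants 3 and 4 were the highest libraries, while mutants 1 and 2 reached into the range of the controls or lay next to it. Rpl22l1, given with its paralog below, went the other way, with a log2 fold change of -0.43 and its highest values in the controls of letter P.

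The letters were compared next, with genotype kept in the fit. No member passed this test either (0 of 80), where 0.0190% of all genes were called. At an unadjusted p under 0.05 there were 19 members, 23.8% of those tested, against 25.9% of all genes, a share near the background. The median log2 difference, P over R, was -0.26 for members and 0.00 for all genes, and 73 of 80 members were lower in P. DESeq2 called 7 of 80 members lower in P, and 1641 of 15789 genes in either direction, so the share of members was not above that of all genes.

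The smallest p-values of that comparison belonged to Rpl8, Rpl28, Rplp2 and Rpl7a. Rpl8, which lies near the peptidyl transferase centre, was at 334, 372, 395 and 372 CPM in the P libraries (mutants 1 and 2, then controls 1 and 2) and at 568, 584, 464 and 430.0 CPM in the R libraries (mutants 3 and 4, then controls 3 and 4). All P libraries were below all R libraries, with a log2 difference of -0.46 (SE 0.11, edgeR adjusted p = 0.0653). Rplp2, an acidic protein of the stalk, was at 151, 176, 222 and 182 CPM in the P libraries and at 307, 278, 233 and 242 CPM in the R libraries, a log2 difference of -0.54 (SE 0.13, edgeR adjusted p = 0.0664). Rpl28 was at 227, 313, 280.0 and 262 CPM in the P libraries and at 404, 419, 331 and 341 CPM in the R libraries, a log2 difference of -0.46 (SE 0.11, edgeR adjusted p = 0.0658). In Rpl7a the P libraries were at 525, 578, 545 and 523 CPM and the R libraries at 782, 778, 610.4 and 619 CPM, a log2 difference of -0.35 (SE 0.10, edgeR adjusted p = 0.0745). In these 4 genes every P library was below every R library, and the mutants of letter R were the highest. The 4 genes were taken for their small p in this comparison, so the separation of the letters in them is no separate result. The share of all genes with such a separation was not counted.

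The mutant over control change itself differed between the letters. In the test of that difference (the interaction of genotype and letter, P minus R on the log2 scale), 52 of 80 ribosomal protein genes were called and all 52 were negative, that is, the mutant over control change was lower in P than in R. Among all genes tested 3.20% were called and 2.24% were called in this direction, which makes 354 genes, with 151 genes (0.956%) in the other. The median difference was -0.87 for members and -0.02 for all genes. All 80 members had a negative value, over a range of -1.90 to -0.23, with 26 members below -1, 46 between -1 and -0.5 and 8 above -0.5. The calls rested on 2 libraries per group and letter. In the 8 fits that each left out 1 library, the number of members called fell in all but that without mutant 3. In most of these fits it fell to a small part of the 52. The number of all genes called moved widely over these fits too. The median over members stayed between -0.93 and -0.76 in these 8 fits. With the Hox gene mean as a covariate, added after the data were seen, 30 members were called and the median was -0.86.

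Within letter P the mutants were below the controls and within letter R above them. In P the mean of the mutants was lower for 78 of 80 members and the median log2 fold change, mutant over control, was -0.36, against 0.00 for all genes. Only Rpl22l1 and Rpl39 were called lower there, where 0.0190% of all genes were called. In R the mean was higher in mutants for 78 of 80 members, the median log2 fold change was 0.51, against 0.04 for all genes, and 61 members were called higher, where 6.31% of all genes were called higher. Fits of the libraries of 1 letter alone, with 2 against 2 libraries, called 2 members lower in P and 0 members in R, while the 61 calls come from the fit of all 8 libraries. The mutants lay below both controls in P and above both controls in R, with no overlap in either letter, for 61 of 80 members, against 8.36% of all genes. The opposite pattern, above in P and below in R, was found in 0 of 80 members, against 5.23% of all genes. The exceptions in sign were Rpl14 and Rpl7a, whose mutant means were higher in P by a log2 fold change of 0.01 and 0.04, and Rps27 and Rps4l, whose mutant means were lower in R.

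**Figure D2:**
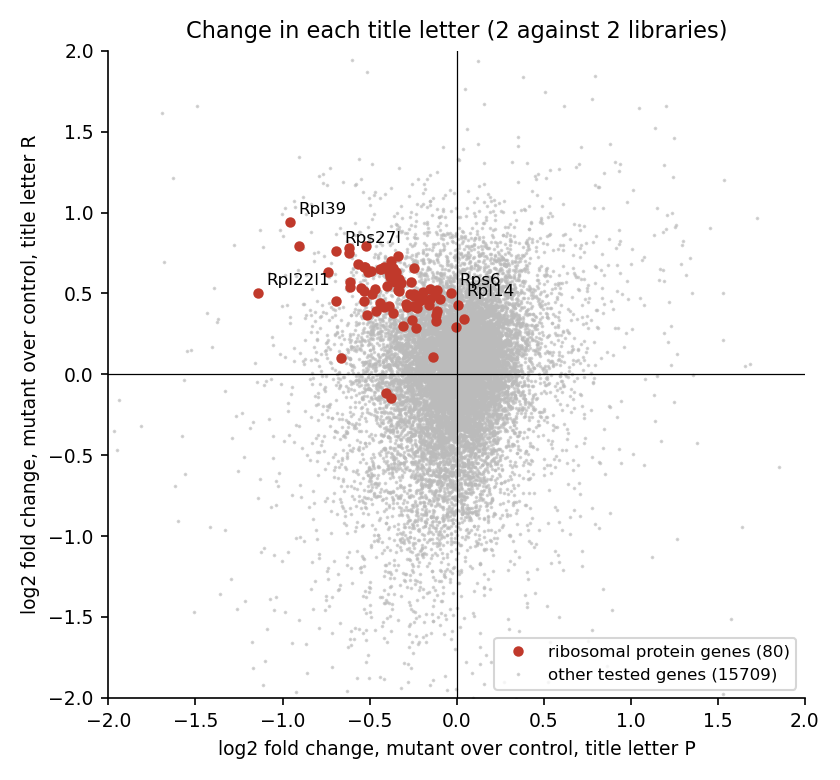
Log2 fold change of mutant over control in letter P (x axis) and in letter R (y axis), each from 2 against 2 libraries, for the 80 tested ribosomal protein genes (red) and 15709 other genes (grey); 71 tested genes lie outside the axes, which end at 2 and -2. The red points sit in the upper left, with medians of -0.36 in P and 0.51 in R.

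The same values can be read by letter within a genotype, from the same libraries. In mutants, all 80 members were lower in P than in R, with a median log2 difference of -0.66, and 74 members were called lower, where 7.87% of all genes were called lower. In controls, 62 of 80 members were higher in P, with a median of 0.16, and 8 members were called higher, where 0.988% of all genes were called higher. Those 8 were Rpl7, Rpl22l1, Rpl36a, Rpl39, Rps7, Rps25, Rps27a and Rps27l. These comparisons share libraries with those of mutant over control within a letter.

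Among the large-subunit genes 31 of 44 tested were called in the interaction, with a median over the 44 genes of -0.87. Rpl39, on chromosome X, encodes a small protein that lines the exit tunnel of the growing peptide and had the smallest p of all members. Rpl39 was at 111, 92.2, 182 and 181 CPM in mutants 1 to 4, against 195, 199, 94.1 and 95.02 CPM in controls 1 to 4. In P the controls were about as high as the mutants of letter R, and the other 4 libraries were all at 111 CPM or below. The log2 fold change of mutant over control was -0.96 (SE 0.10) in P and 0.94 (SE 0.10) in R, and the difference between them was -1.90 (SE 0.14, edgeR adjusted p = 0.00459). Rpl39 was called under all 14 alternatives, with adjusted p-values up to 0.0439.

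Rpl37a, a zinc-binding protein of the large subunit, was at 140.2, 143, 268 and 258 CPM in mutants, against 224, 195, 161 and 167 CPM in controls, a difference of -1.24 (SE 0.13, edgeR adjusted p = 0.0103). Rpl13a, which in human monocytes can leave the ribosome to repress specific messages, was at 391.8, 443, 782 and 774 CPM in mutants, against 676, 604, 480.0 and 447 CPM in controls, a difference of -1.37 (SE 0.15, edgeR adjusted p = 0.0106). Rpl36a, which contacts the exit site for transfer RNA, was at 182, 185, 295 and 265 CPM in mutants, against 244, 252, 177 and 180.0 CPM in controls, a difference of -1.08 (SE 0.13, edgeR adjusted p = 0.0106). In these 3 genes both mutants were below both controls in P and above them in R, and the controls were higher in P than in R. Rpl7 was at 548, 526, 777 and 803 CPM in mutants, against 695, 707, 483 and 512 CPM in controls, a difference of -1.05 (SE 0.13, edgeR adjusted p = 0.0123).

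Rpl3 and Rpl4, the large-subunit genes with the most counts outside the stalk, had differences smaller in size than the genes above. A trend with level was not tested, and Rpl7, at a mean of 599 CPM in controls, was at -1.05. Rpl3, which lies close to the peptidyl transferase centre, was at 638, 609.7, 935 and 933 CPM in mutants, against 728, 658, 682 and 669 CPM in controls, a difference of -0.62 (SE 0.13, edgeR adjusted p = 0.0454). Rpl4, whose extension reaches into the exit tunnel, was at 767, 823, 1049 and 1143 CPM in mutants, against 941, 834, 802 and 830.1 CPM in controls, a difference of -0.59 (SE 0.15, edgeR adjusted p = 0.0663), which did not pass. In both genes the mutants of letter R were the highest libraries, and in letter P the mutants lay below the controls by a smaller margin.

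Among the small-subunit genes 20 of 33 were called, with a median over the 33 genes of -0.89. Rps27a, which is made as a fusion with ubiquitin, was at 254, 239, 362 and 395 CPM in mutants, against 381, 376, 213 and 228 CPM in controls. Controls of letter P and mutants of letter R were alike and high, and the other 4 libraries were low, with a difference of -1.40 (SE 0.13, edgeR adjusted p = 0.00684). Rps14, on chromosome 18, a protein of the platform next to the messenger RNA, was at 259.8, 221, 436 and 403 CPM in mutants, against 354, 335, 252 and 232 CPM in controls, a difference of -1.31 (SE 0.15, edgeR adjusted p = 0.0106). Both genes had no overlap between mutants and controls in either letter.

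Rps4x, the X-linked S4 gene, was at 587, 618, 949 and 1003 CPM in mutants, against 785, 736, 572 and 605 CPM in controls, a difference of -1.07 (SE 0.13, edgeR adjusted p = 0.0130). Rpsa, also known as the laminin receptor precursor, was the member with the most counts and was at 940.3, 934, 1414 and 1323 CPM in mutants, against 1149, 1050.0, 1149.8 and 1092 CPM in controls. Its mutants were the 2 lowest and the 2 highest libraries, and its difference of -0.52 (SE 0.14, edgeR adjusted p = 0.0745) did not pass. Fau, which is made as a fusion of a ubiquitin-like protein with S30, was at 148, 156, 270.5 and 249.7 CPM in mutants, against 215, 190.3, 198 and 193 CPM in controls, a difference of -0.83 (SE 0.14, edgeR adjusted p = 0.0251).

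The stalk recruits the elongation factors to the large subunit, and 1 of its 3 genes was called, with a median of -0.63. Rplp1 was at 366, 430.5, 765 and 640.0 CPM in mutants, against 607, 528, 557 and 533 CPM in controls, a difference of -0.88 (SE 0.18, edgeR adjusted p = 0.0416). Rplp0 was at 739.7, 849, 1378 and 1416 CPM in mutants, against 905, 811, 999.6 and 948 CPM in controls, a difference of -0.63 (SE 0.15, edgeR adjusted p = 0.0590). In Rplp0 the mutants and controls of letter P overlapped, and the mutants of letter R stood above all other libraries. Rplp2, given above, had a difference of -0.61 (SE 0.17, edgeR adjusted p = 0.0863).

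**Figure D3:**
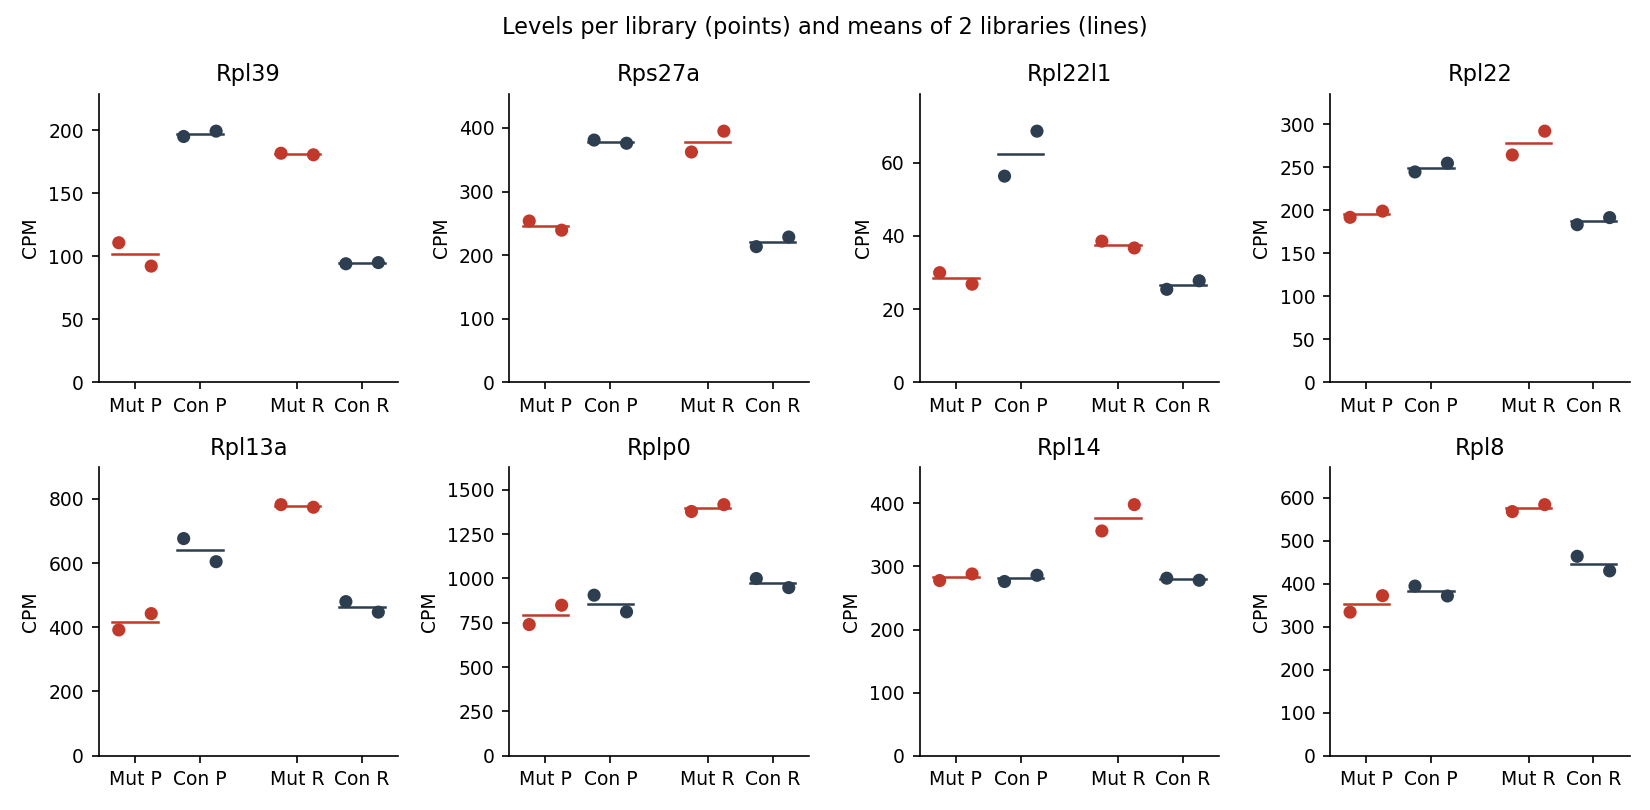
CPM of 8 ribosomal protein genes in each library (points) with the mean of the 2 libraries of a group (lines), mutants in red left of controls in dark, letter P left of letter R; each axis starts at 0. Rpl39 and Rps27a are crossed between the letters, at 102 and 246 CPM in mutants of letter P against 197 and 378 CPM in controls; Rpl14, Rplp0 and Rpl8 are raised mainly in mutants of letter R.

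Paralogs with enough counts were compared with their parent genes. Rpl22 is an RNA-binding protein of the large subunit and Rpl22l1 is its paralog, whose expression Rpl22 represses in mice. Rpl22 was at 192, 199, 264 and 292 CPM in mutants, against 245, 255, 183 and 191 CPM in controls, a difference of -0.92 (SE 0.13, edgeR adjusted p = 0.0153). Rpl22l1 was at 29.96, 26.8, 38.6 and 36.7 CPM in mutants, against 56.4, 68.7, 25.4 and 27.7 CPM in controls, a difference of -1.64 (SE 0.17, edgeR adjusted p = 0.0103). In both genes mutants were below controls in P and above them in R, and in Rpl22l1 the controls of letter P were the ones that stood apart. Over all 8 libraries its log2 fold change of mutant over control was -0.43 (SE 0.29, edgeR adjusted p = 0.511).

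Rps27l, a p53-inducible paralog of Rps27, was at 26.8, 27.4, 44.95 and 43.6 CPM in mutants, against 43.3, 44.1, 25.9 and 26.4 CPM in controls, a difference of -1.45 (SE 0.13, edgeR adjusted p = 0.00684). Rpl10, which joins the large subunit late in its assembly, was at 401, 307, 539 and 557 CPM in mutants, against 486, 443, 350.4 and 355 CPM in controls, a difference of -1.03 (SE 0.18, edgeR adjusted p = 0.0309). The paralogs Rpl3l, Rpl10l and Rpl39l were close to absent. Rpl3l had 9, 2, 6 and 0 counts in mutants and 9, 4, 5 and 9 in controls. Rpl39l had 1, 0, 3 and 6 counts in mutants and 2, 5, 3 and 4 in controls. Rpl10l had 0 counts in every library, which allows up to 3 counts per library.

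Members that were not called numbered 28, all with a negative value. Just past the threshold were Rpl10a at -0.67 (edgeR adjusted p = 0.0520) and Rps20 at -1.13 (edgeR adjusted p = 0.0542), and farthest from it were Rps27, Rps4l and Rpl28. Rps4l was at 28.4, 35.6, 58.3 and 34.2 CPM in mutants, against 47.9, 36.9, 48.7 and 51.5 CPM in controls, with mutants 3 and 4 apart from each other, and had a difference of -0.29 (SE 0.34, edgeR adjusted p = 0.663).

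The gene rows of Rpl26, Rpl30, Rpl34 and Rps27 held few counts. Rps27 was at 1.49, 2.49, 2.65 and 2.01 CPM in mutants and 2.67, 2.498, 3.06 and 2.07 CPM in controls, and its interaction of -0.23 was not called (SE 0.44, edgeR adjusted p = 0.799). In the exon bin tables these 4 genes share a bin group with an overlapping annotated gene (Gm15772, Gm12191, Rpl34-ps1 and Rps27rt), and reads over both genes of such a pair can be left out of a count per gene. The counts of Rpl26 per gene equalled those of its first bin alone, at 26, 30, 39 and 38 in mutants and 53, 46, 33 and 30 in controls. Its bin 4 held 6030, 6086, 9025 and 9685 counts in mutants and 9778, 8854, 5871 and 5574 in controls, the order of groups seen in the rest of the family. Those bin counts are of the joined pair and cannot be assigned to Rpl26 alone.

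The bin with the most counts was also taken for each bin group, which was added after the data were seen. By it the joined groups of these 4 genes were at levels of the rest of the family. These values too are of the joined pairs and cannot be assigned to 1 gene of a pair. The group of Rps27 was at 233, 260.1, 443 and 446 CPM in mutants, against 403, 421, 258 and 269 CPM in controls. Its difference was -1.49 (SE 0.15, edgeR adjusted p = 0.00570). The group of Rpl34 had a difference of -1.27 (edgeR adjusted p = 0.0139), that of Rpl26 of -0.995 (edgeR adjusted p = 0.0285) and that of Rpl30 of -0.998 (edgeR adjusted p = 0.0366). Over the largest bins of the 80 members tested 36 were called lower, where 1.26% of all bin groups were called, all 80 were negative and the median was -0.86. For mutant over control and for the letters 0 members were called by this count, where 0% and 0.0134% of all bin groups were called.

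**Figure D4:**
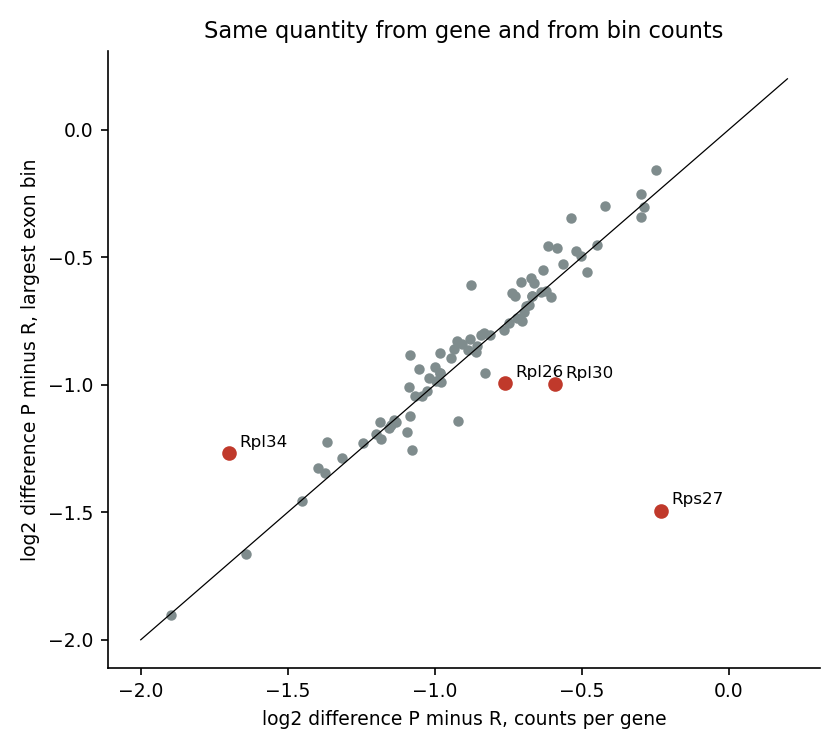
Difference between letters of the mutant over control change (log2, P minus R) from the counts per gene (x axis) and from the exon bin with the most counts (y axis) for the tested ribosomal protein genes; the line marks equal values. Rpl26, Rpl30, Rpl34 and Rps27 (red) are the genes with few counts per gene, and their bins are of a joined pair of genes. Rps27 is at -0.23 from the gene counts and -1.49 from the bin.

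Exon bins were also tested for a change in their use relative to the rest of the gene. No member was called for mutant over control (0 of 79 bin groups, Simes' method on edgeR p-values, where 0.00749% of all bin groups were called), for the letters (0 of 79, where 0.861% were called) or for the interaction (0 of 79, where 0.0375% were called, a comparison added after the data were seen). At an unadjusted p under 0.05 there were 1, 0 and 7 members in these comparisons, of 30, 769 and 246 bin groups in all among 13351. The level of nearly all bins moved with the gene, since 453 of the 459 member bins tested had a negative interaction, with a median of -0.92, against 0.00 for all bins. Rps24, whose last exons are alternatively spliced, had Simes p-values of 0.982 for mutant over control, 0.988 for the letters and 0.896 for the interaction.

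The member with the smallest Simes p was Fau, through bin 3. That bin had 19, 119, 44 and 38 counts in mutants, against 186, 131, 211 and 167 counts in controls. Mutants 1, 3 and 4 were low while mutant 2 was next to the controls, and the bin held between 0.186% and 1.10% of the counts of the gene in mutants and 0.914% to 1.64% in controls. Fau as a whole had an adjusted Simes p of 0.257 for mutant over control in edgeR, and without mutant 2 it was called.

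Reference promoters of members were compared because members on 20 chromosomes moved together. RefSeq entries of GRCm38.p6, 250 bases before to 50 bases after the start, were matched for 62 of 83 members. Windows of 90 bases, 60 before and 30 from the start, are shown for members that have a single entry and lie clear of joined annotations, 4 from among those with the smallest p in the interaction (Rpl39, Rpl22l1, Rpl37a and Rpl36a) and 2 from among those with the largest p (Rps15 and Rpl28), 5′ to 3′ on the strand of the gene. Capitals mark CTTCCG, the core of ETS factor motifs, or CTTTC, a pyrimidine run, on either strand.
Rpl39 (chrX:37085193-37085282, minus strand): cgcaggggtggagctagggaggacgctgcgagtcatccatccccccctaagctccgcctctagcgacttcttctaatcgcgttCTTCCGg
Rpl22l1 (chr3:28805448-28805537, plus strand): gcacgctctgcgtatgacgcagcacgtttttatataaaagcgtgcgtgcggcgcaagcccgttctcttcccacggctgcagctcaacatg
Rpl37a (chr1:72711200-72711289, plus strand): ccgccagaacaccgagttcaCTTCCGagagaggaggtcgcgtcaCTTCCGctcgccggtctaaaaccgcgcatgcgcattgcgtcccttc
Rpl36a (chrX:134585594-134585683, plus strand): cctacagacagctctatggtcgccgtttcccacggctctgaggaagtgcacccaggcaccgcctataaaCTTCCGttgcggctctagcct
Rps15 (chr10:80292371-80292460, plus strand): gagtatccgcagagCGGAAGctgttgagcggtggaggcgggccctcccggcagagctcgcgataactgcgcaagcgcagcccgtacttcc
Rpl28 (chr7:4792905-4792994, plus strand): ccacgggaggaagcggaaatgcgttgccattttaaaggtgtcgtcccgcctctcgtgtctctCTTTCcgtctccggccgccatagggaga

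CTTCCG was present once in the windows of Rpl39, Rpl36a and Rps15, 2 times in that of Rpl37a and not in those of Rpl22l1 and Rpl28. Over the full 300 bases and both strands CTTCCG was in 66.1% of the 62 members, against 18.8% of 27025 genes. GGGCGG, the core of Sp1 sites, was in 61.3% of members, against 38.2% of genes, and CTTTC in 82.3%, against 60.6%. CACGTG, the E-box bound by Myc and Max, was in 9.68% of members, against 8.09% of genes, and AAGATGG, the core of YY1 sites, in 16.1%, against 7.28%. Among members with an entry, CTTCCG was in 60.5% of the 38 called in the interaction and in 81.0% of the 21 tested and not called, and CTTTC was in 81.6% and 81.0% of them. These are matches of letters in a reference of another build than the counts and no measure of binding.

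Ribosomal protein messages are short, so the difference was set beside that of other genes of like length. The median length of the coding transcripts of members, in the annotation of the reference build, was 681 bases for the 79 members with a length. In genes under 600 bases the median difference was -0.87 for 28 members and -0.12 for 434 other genes, and in genes of 600 to under 1000 bases it was -0.92 for 37 members and -0.17 for 1820 other genes. The share called lower was 64.3% of members and 5.30% of other genes in the shorter class, and 70.3% of members and 6.04% of other genes in the longer. Other genes of 4000 bases and over had a median of 0.11, so the value moved with length outside the family too, by less than the family's median. Across the members the difference had a Pearson r of 0.10 with length and of 0.27 with GC content (n = 79 genes, which share libraries). Read position was compared in 7443 genes with 8 or more bins, split into 3 equal runs. The run at the 3′ end held a median of 50.2%, 48.8%, 49.2% and 48.2% of a gene's counts in mutants 1 to 4. In controls 1 to 4 it held 48.4%, 49.5%, 49.5% and 49.3%. Mutant 1, the library with the lowest share of ribosomal protein genes, had the highest value there. It had the lowest value at the 5′ end, 19.1%. Most members have fewer than 8 bins, so this measure hardly covers them.

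**Figure D5:**
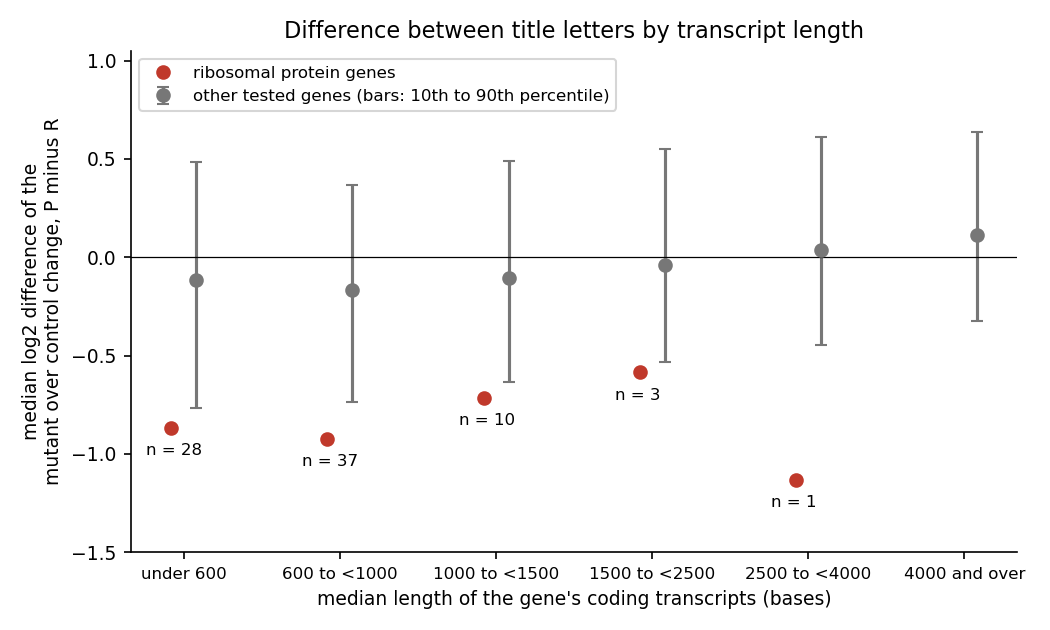
Median difference between letters of the mutant over control change (log2, P minus R) by transcript length (bases), for other tested genes (grey, bars from the 10th to the 90th percentile) and ribosomal protein genes (red, with their number). Members are at -0.87 under 600 bases and -0.92 from 600 to under 1000 bases, where other genes are at -0.12 and -0.17.

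The members moved as a block over the 8 libraries. The Pearson r between a member's log2 CPM and the median deviation of the members had a median of 0.93, and it was above 0.9 for 46 of 80 members, with the lowest value, 0.35, in Rps27 as counted per gene. These r are over 8 libraries and each member enters the median. Outside the members the genes most like the family were Dctpp1, a pyrophosphatase of dCTP (r = 0.992), Dtymk, thymidylate kinase (r = 0.985), 1110038B12Rik (r = 0.983), Nxt1, a cofactor of messenger RNA export (r = 0.981), and A430005L14Rik (r = 0.980). Dctpp1 was at 20.1, 24.4, 42.4 and 45.3 CPM in mutants, against 32.6, 28.3, 25.8 and 27.3 CPM in controls.

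Levels per kilobase used the median length of a gene's annotated coding transcripts, 495 bases for Rpl13a, 854 for Rplp0 and 3706 for Rps20. The order of members may depend on that choice, and other lengths were not tried. By this measure the highest members with a count per gene in controls were Rps24, Rpl13a, Rplp1, Rpl41 and Rplp0. They were at 1412, 1207, 1103, 1108 and 1283 CPM per kilobase in mutants. In controls they were at 1286, 1115, 1115, 1076 and 1073 CPM per kilobase. These levels per length are of the gene counts and so understate Rpl26, Rpl30, Rpl34 and Rps27. Rpl13a also has a joined annotation, with Snord33 and Mir5121, and whether its level is understated was not tested.

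Rps3a1, a ribosomal protein gene of the small subunit that the rule did not take, was at 493, 529.9, 806 and 831 CPM in mutants, against 713, 654, 532 and 544 CPM in controls, a difference of -1.02 (SE 0.13, edgeR adjusted p = 0.0138). It was named after its values were seen.

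Other genes of the translation machinery were taken as lists and 0 of their genes were called for mutant over control or for the letters, where 0% and 0.0190% of all genes were called. In the interaction 6 of 18 other translation genes with TOP messages were called lower, where 2.24% of all genes were called lower, with a median of -0.25 over the 18. These were Eif3e, an initiation factor subunit, Naca and Btf3, the subunits of the nascent polypeptide-associated complex, Gnb2l1, the small-subunit scaffold also known as Rack1, Tpt1 and Npm1, a nucleolar chaperone. Eif3e was at 154, 128, 178 and 184 CPM in mutants, against 179, 211, 104 and 112 CPM in controls, a difference of -1.21 (SE 0.17, edgeR adjusted p = 0.0158). Elongation factors did not pass, with Eef1a1 at -0.11 (SE 0.14, edgeR adjusted p = 0.676) and Eef2 at 0.08 (SE 0.14, edgeR adjusted p = 0.796).

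The same 2.24% is the background of the lists that follow. Of 30 subunit processing factors 3 were called lower (Nop58, Utp14a and Nip7), with a median of -0.28. Of 14 genes of RNA polymerase I and its factors 1 was called lower (Znrd1), with a median of -0.18. Of 77 mitochondrial ribosomal protein genes 7 were called lower, with a median of -0.26, against -0.87 in the cytoplasmic family. Of 9 hosts of small nucleolar RNAs 2 were called lower (Snhg1 and Snhg5) and 1 higher (Snhg11), with a median of -0.91. Of 10 genes of translation control, among them Mtor and Larp1, 0 were called, with a median of 0.05, and of 4 tested genes of the Myc family 0 were called, with a median of -0.29. Mycn, which Hedgehog signalling induces in granule precursors, was at 67.5, 99.9, 134 and 184 CPM in mutants, against 84.1, 79.5, 88.4 and 104 CPM in controls, a difference of -0.69 (SE 0.28, edgeR adjusted p = 0.198).

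Markers of cell types were summed in the same libraries. The 7 granule precursor markers, with none at 0, summed to 1051, 1372, 1549 and 2087 CPM in mutants 1 to 4, against 1042, 1017, 1211 and 1229 CPM in controls. Of them 0 were called in the interaction, where 3.20% of all genes were called. The 6 mitosis markers, with none at 0, summed to 843, 794, 998.5 and 1407 CPM in mutants, against 693, 737, 649 and 749.8 CPM in controls, and Top2a and Ccnb1 of them were called lower in the interaction. The 6 markers of mature neurons, with none at 0, summed to 3466, 3230.0, 2827 and 2243 CPM in mutants, against 3959, 3513, 4217 and 3922 CPM in controls, and Syt1 was called higher in the interaction. Mutants of letter R thus had the highest sums of granule precursor and mitosis markers and the lowest of neuron markers. Unlike the ribosomal protein genes, the mitosis sums were higher in the mutants of letter P than in the controls of that letter. The granule precursor sums were higher too, but in mutant 1 only narrowly, at 1051 against 1042 and 1017 CPM. Atoh1, Zic1 and Barhl1 in mutant 1 were at 17.1, 481.0 and 85.3 CPM, below both controls of letter P, while Pax6 was above them. In mutant 2 these markers were above both controls of letter P. The mitosis sums of the mutants of letter P were above those of all controls. The 8 choroid plexus markers, with none at 0, summed to 3393 to 5957 CPM in mutants and 1341 to 3128 CPM in controls. The part of these markers, of sex and of the Hox genes in the result on ribosomal protein genes was not tested beyond the fit with the Hox gene mean.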

How the data were processed

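The authors deposited, for each of 8 libraries, whole-number counts per gene (24062 genes) and counts per exon bin (219958 bins), not normalized, per the file contents. The submitters' processing notes name TopHat, HTSeq and DESeq2, with no version, and the build mm9, but no annotation. The summary lines held 24.8% to 34.3% of entries of the gene tables and were left out. The filter filterByExpr left 15789 genes, TMM factors were 0.986 to 1.01, and edgeR 4.0.16 in R 4.3.3 gave robust quasi-likelihood F tests, two-sided, with p-values adjusted by Benjamini-Hochberg over all genes and a threshold of 0.05. Designs were genotype alone, genotype with letter, and both with their product, from which changes within a letter or genotype were taken. SE is the log2 fold change over the root of F. Exon bins were tested with diffSpliceDGE and Simes' method. Alternatives were DESeq2 1.42.0, other scalings, no filter, and leaving out each library. The steps were tested on simulated counts.

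Members, lists and tests were chosen with earlier results of these data known. Genes were named by rule: up to 10 called members per test by smallest p, or 4 where no member passed, the 5 with the most counts, the paralog pairs Rpl3, Rpl10, Rpl22, Rpl39 and Rps27 with their copies, Rps24 and the members with the smallest Simes p, and the 5 genes most like the family at 10 CPM or more. Rplp1, Fau as a gene, Rpl26, Rpl30, Rpl34, Rps4l, Rpl10a, Rps20 and the list members given with values fell outside it and were chosen after their values were seen. Libraries came from different pups, per the labels, and pairs within a group differed beyond counting noise (chi-square over its degrees of freedom, 7.42 to 81.0). Some genes that the naming rule took are not reported here.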

Additional observations from a re-analysis of the deposited data

Results flagged for a closer look

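A total of 52 ribosomal protein genes had a mutant over control change that differed between the letters P and R by the test of that difference. Of the genes given with values in every library, these included Rpl39 (-1.90 on the log2 scale, P minus R), Rpl22l1 (-1.64), Rps27l (-1.45), Rps27a (-1.40), Rpl13a (-1.37), Rps14 (-1.31), Rpl37a (-1.24), Rpl36a (-1.08), Rps4x (-1.07), Rpl7 (-1.05), Rpl10 (-1.03), Rpl22 (-0.92) and Rpl3 (-0.62). In edgeR the adjusted p-values ran from 0.00459 for Rpl39 to 0.0454 for Rpl3. The labels do not say what P and R mean, so what differs between them was not tested.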

How the results depend on the processing

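The median of the members in the interaction stayed negative under all alternatives run, from -0.93 to -0.76 when 1 library was left out. The number of members called lower, 52 in the full fit, ranged from 1 to 60 without 1 library. It was 30 with the Hox gene mean as covariate. The cause of these changes in the interaction was not tested. All genes called in it, 505 in the full fit, numbered 1 to 2155 without 1 library, 1051 with DESeq2 and 129 with the Hox gene mean. Of the 18 members whose value was followed under each alternative, Rps27 as counted per gene changed sign, with a range of -0.63 to 0.096 without 1 library (0.096 without mutant 1 and 0.024 without control 4).

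For mutant over control, the median of the members, 0.13, was -0.047 with the Hox gene mean, -0.36 in letter P alone and 0.48 in letter R alone, and 0.00076 to 0.23 without 1 library. In letter P alone 2 members were called lower and in letter R alone 0. Within a letter Rps6 (-0.039 in P), Rpl21 (-0.10 in P) and Rpl22l1 (0.48 in R) changed sign. All genes called, 0 in the full fit, were 47 with DESeq2, 5 in letter P alone, 1 in letter R alone and 0 to 1 without 1 library. For exon bins 0 members were called, and 1 (Fau) without mutant 2, with a range of 0 to 1.

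For the letters, the median of the members, -0.26, was -0.66 in mutants alone, 0.16 in controls alone and -0.36 to -0.14 without 1 library. Members called were 7 lower with DESeq2, 50 lower in mutants alone, and 27 higher and 1 lower in controls alone. All genes called, 3 in the full fit, were 1641 with DESeq2, 6 with library sizes only, 0 with upper quartile scaling, 0 with scaling without the members, 196 with no filter, 0 with the letter as the only term, 764 in mutants alone, 1524 in controls alone and 0 to 1 without 1 library.

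No paired analysis was possible because the replicate numbers were given in accession order. The letter as a block in the mutant over control fit called 0 members. The alternative without mitochondrially encoded genes was not run, since the tables list 0 of them.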
